A study of Mus musculus with 4 samples.

Results

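Genes that cells switch on when oxygen is short were followed through tumour tissue and lung. They are the 8 genes Car9, Ndrg1, Pdk1, Egln3, Adm, Vegfa, Bnip3 and Ankrd37. They were chosen by name, with earlier results of these data known, and all 8 were found among the 19465 genes measured. The samples were 4 tissue sections, 1 of the primary tumour and 1 of the lung of each of 2 BALB/c mice, which the labels call Mouse_627 and Mouse_628. At 8 weeks of age each mouse received 100000 4T1 cells in the mammary fat pad. The 4T1 line comes from a BALB/c mammary carcinoma and forms lung metastases. Tissues were taken 28 days after injection. No uninjected mouse was among the sections, so the lung values are those of tumour-bearing animals only. Gene expression was measured by Visium on fixed tissue, in which a pair of probes for each gene is captured on a grid of barcoded spots and counted by unique molecular identifiers (UMIs). Each spot covers a patch of tissue in which more than 1 cell, and more than 1 cell type, can lie. Levels are given as CPM, the UMIs of a gene per 1000000 UMIs of the section or of the spots named. Probes differ between genes, so a level was compared between sections or spots and never between genes.

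In cells with enough oxygen, prolyl hydroxylases mark the alpha subunits of the hypoxia-inducible factors (HIF) for destruction. When oxygen falls, the alpha subunits persist, pair with Arnt and bind short DNA elements with the core ACGTG or GCGTG beside their target genes. The 8 genes are well-known targets of this kind. Car9 is a carbonic anhydrase on the cell surface that helps to export acid, Egln3 is itself one of the prolyl hydroxylases, and Pdk1 is a kinase that holds pyruvate back from the mitochondria. Ndrg1 is a cytoplasmic stress-response protein, Bnip3 is a mitochondrial protein that takes part in mitophagy, and Ankrd37 is a small ankyrin-repeat protein. Adm (adrenomedullin) and Vegfa are secreted and act on vessels, and Vegfa is also made by the alveolar epithelium of the normal lung.

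The 8 genes lie on 7 mouse chromosomes (GRCm38, GENCODE vM21). Car9 (ENSMUSG00000028463) is at chr4:43506966-43513729 and Pdk1 (ENSMUSG00000006494) at chr2:71873224-71903858, both on the plus strand. Adm (ENSMUSG00000030790) is on the plus strand at chr7:110627661-110629820, and Bnip3 (ENSMUSG00000078566) is on the minus strand of the same chromosome at chr7:138890836-138909519. The others are on the minus strand, with Ankrd37 (ENSMUSG00000050914) at chr8:45996902-46005707, Egln3 (ENSMUSG00000035105) at chr12:54178981-54203860, Ndrg1 (ENSMUSG00000005125) at chr15:66929318-66969640 and Vegfa (ENSMUSG00000023951) at chr17:46016993-46032369. RefSeq start sites on GRCm38.p6 were matched for 7 of the 8 genes, and Ndrg1 had none in the table used. The 250 bases before each start were searched for ACGTG and for GCGTG on both strands, where the opposite strand reads CACGT and CACGC. The first motif, ACGTG, was found before a start of Car9, Egln3, Bnip3, Ankrd37 and Vegfa, and GCGTG before a start of Pdk1, Adm, Bnip3, Ankrd37 and Vegfa. Of the 32851 mouse promoters in the same table, 16.6% hold ACGTG and 28.2% hold GCGTG in the same window, so these short matches are common and describe the sequence only. Stretches around a match are shown for the 6 genes that had a listed start and were lower in each lung than in either primary tumour, in the direction of the gene and with the matched letters in capitals.
Car9, 18 bases before the start, chr4:43506996-43507024, plus strand: ctatttccgatgCACGTacagcccgtcca
Egln3, 229 bases before the start, chr12:54204087-54204115, minus strand: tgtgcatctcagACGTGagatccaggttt
Bnip3, 107 bases before the start, chr7:138909597-138909625, minus strand: cgcacgcgccgcACGTGccacacgctccc
Ankrd37, 241 bases before the start, chr8:46000075-46000100, minus strand: cccagcagtACGTGcctagctcggct
Pdk1, 78 bases before the start, chr2:71873134-71873162, plus strand: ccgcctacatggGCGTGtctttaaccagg
Adm, 54 bases before the start, chr7:110627591-110627619, plus strand: ggcaaatctgacCACGCccaccgtccgcc
The Bnip3 match overlaps a match on the opposite strand that is offset by 1 base, and the Car9 and Ankrd37 stretches lie upstream of the RefSeq start but inside the longer GENCODE gene model.

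A minimum of more than 200 detected genes left 9339 of 9445 spots, and the 106 removed spots were all in the primary tumour of Mouse_627. The kept spots held 10890154 to 30240176 UMIs per section, with a median of 1820 to 9174.5 UMIs per spot, and the lungs were deeper than the primary tumours. In the primary tumour of Mouse_627, 886 spots had under 1000 UMIs. Markers of 4T1 cells, a list of 9 genes, summed to 3835 and 4696 CPM in the primary tumours of Mouse_627 and Mouse_628 and to 122 and 1063 in their lungs. The marker Hoxc9 was at 0 in the lung of Mouse_627. Alveolar markers summed to 13761 and 7777 in the lungs against 27.9 and 76.0 in the primary tumours. Genes of odorant and vomeronasal receptors, 1178 in number, which neither tissue should express, averaged 0.737 and 0.205 CPM in the primary tumour and the lung of Mouse_627 and 7.86 and 0.155 in those of Mouse_628. The barcodes are those of the slide, and 2575 of 3401 distinct barcodes were used in more than 1 section.

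As many as 7 of the 8 genes were at lower levels in each lung than in either primary tumour, and Vegfa was not. The same order was held by 37.8% of the 15267 genes later tested. Car9 was at 840.0 and 853 CPM in the primary tumours of Mouse_627 and Mouse_628, at 96.3 in the lung of Mouse_628 and at 2.16 in the lung of Mouse_627. The lung of Mouse_627 held 24 Car9 UMIs in all, never more than 1 in a spot (exact Poisson 95% interval 1.38 to 3.21 CPM, counting error only). Of the 1178 receptor genes, 1 was at or above this level of Car9 in that lung. Egln3 was at 768 and 740.0 in the primary tumours and at 49.4 and 145 in the lungs of Mouse_627 and Mouse_628. Pdk1 was at 179 and 182 in the primary tumours and at 23.7 and 55.5 in the lungs. For these 3 enzymes, the summed levels of the primary tumours were alike and every lung value lay below them.

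The same order was seen for the stress and mitochondrial genes. Ndrg1 was at 541 and 626 CPM in the primary tumours of Mouse_627 and Mouse_628 and at 19.2 and 40.6 in the lungs. Bnip3 was at 148 and 194 in the primary tumours and at 14.7 and 26.1 in the lungs. Ankrd37 differed least among these genes, with 94.9 and 103 in the primary tumours and 24.0 and 50.4 in the lungs. Of the secreted factors, Adm was at 118 and 158 in the primary tumours and at 8.27 and 17.2 in the lungs. Vegfa was at 139 and 133 in the primary tumours, at 304 in the lung of Mouse_627 and at 85.6 in the lung of Mouse_628, so that the primary tumours lay between the lungs. In bulk sums such as these, fewer cells that express a gene and less RNA per cell cannot be told apart.

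**Figure D1:**
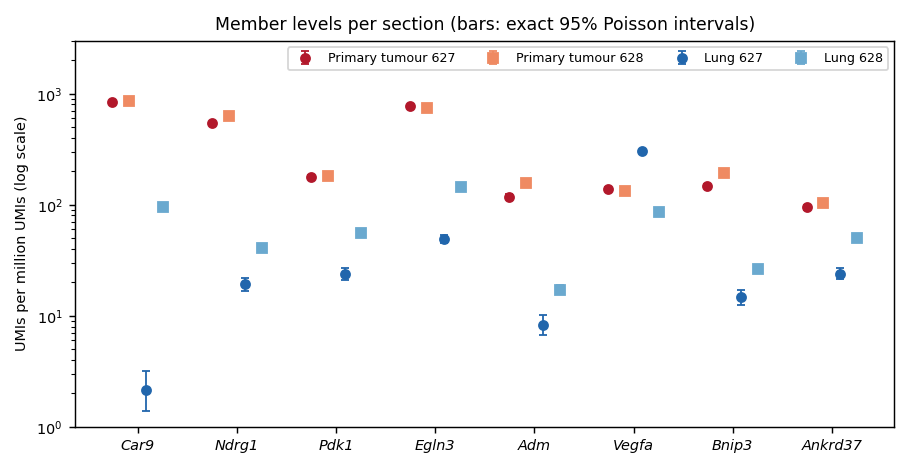
Levels of the 8 genes in each section, as CPM on a log axis, with circles for Mouse_627, squares for Mouse_628 and bars for exact 95% Poisson intervals. The primary tumours lie at the same height for Car9 at 840.0 and 853, while the lungs stand at 2.16 and 96.3, and Vegfa is the gene whose highest value, 304, is in a lung.

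The sums of the lungs were compared with those of the primary tumours by edgeR over 15267 genes (n = 2 sections per tissue). In this test 5 of the 8 genes fell in the lung, when 1.15% of all genes tested did so and 6.31% rose. The 8 genes were chosen with earlier results of these data known, so this contrast is a description and not independent support. Ndrg1 had a log2 fold change of -4.03 (SE 0.47, adjusted p = 0.00419), Adm of -3.17 (SE 0.41, adjusted p = 0.00483) and Bnip3 of -2.79 (SE 0.38, adjusted p = 0.00586). Egln3 had a log2 fold change of -2.72 (SE 0.52, adjusted p = 0.0160) and Pdk1 of -1.94 (SE 0.41, adjusted p = 0.0232). The log2 fold change of Car9 was -3.93, but its SE of 1.18 was the largest of the 8 and the test did not call it (adjusted p = 0.0819). Ankrd37 at -1.16 (SE 0.38, adjusted p = 0.112) and Vegfa at 0.90 (SE 0.59, adjusted p = 0.412) were not called either. The median log2 fold change was -2.75 over the 8 genes and -0.0046 over all genes tested. Each animal gave both tissues, and a fit with mouse as a block put 2.73% of all genes lower, among them 7 of the 8 genes. Car9 was then at -5.43 (adjusted p = 7.86e-12) and Ankrd37 at -1.21 (adjusted p = 0.0363) in edgeR. The ratio of primary tumour to lung for Car9 was 389 in Mouse_627 and 8.86 in Mouse_628, a spread that its p-value in this fit does not reflect.

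Single sections decided some of these calls. Leaving out a section leaves its tissue with 1 sum, which is then assumed to vary like the sums of the other tissue, here and in the other comparisons. Without the lung of Mouse_627, Pdk1 was at -1.37 (adjusted p = 0.195 in edgeR) and Egln3 at -2.05 (adjusted p = 0.144), and neither was called, when 0.58% of genes were lower. Without the lung of Mouse_628, Vegfa was called at 1.79 (adjusted p = 0.0138), when 10.6% of genes were higher, and without the lung of Mouse_627 its sign turned to -0.34 (adjusted p = 0.883). Car9 was called when any 1 of the 4 sections was left out, with log2 fold changes from -7.98 to -2.81. The share of all genes lower in these fits was 27.3% and 1.51% without the primary tumours of Mouse_627 and Mouse_628 and 0.58% and 2.55% without their lungs. Ndrg1, Adm and Bnip3 were called in edgeR and DESeq2 under each alternative run for this comparison, where DESeq2 put 7.91% of all genes lower, with Ndrg1 between -4.30 and -3.51.

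**Figure D2:**
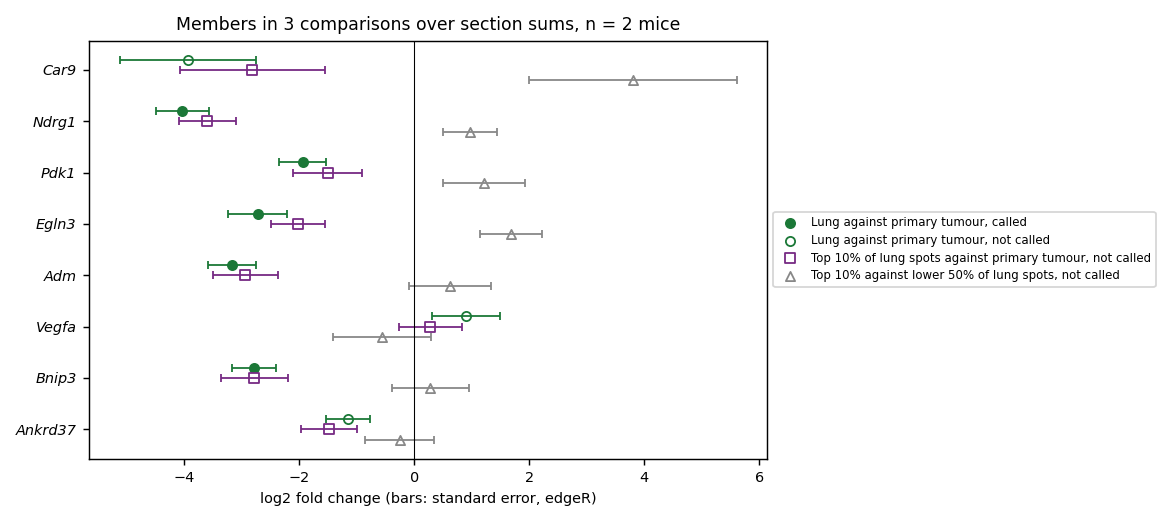
Log2 fold changes of the 8 genes with their standard errors in 3 comparisons of section sums (edgeR, n = 2 mice), with filled symbols where the adjusted p was under 0.05. Only lung against primary tumour has filled symbols, for Ndrg1, Pdk1, Egln3, Adm and Bnip3, and Car9 has the longest bars. The comparisons share sections or spots and are not independent of each other.

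Within each mouse the size of the step from primary tumour to lung differed by gene. In Mouse_627 the ratio of primary tumour to lung was 389 for Car9, 28.1 for Ndrg1, 15.5 for Egln3, 14.3 for Adm, 10.0 for Bnip3, 7.53 for Pdk1, 3.95 for Ankrd37 and 0.458 for Vegfa. In Mouse_628 it was 15.4 for Ndrg1, 9.19 for Adm, 8.86 for Car9, 7.42 for Bnip3, 5.09 for Egln3, 3.28 for Pdk1, 2.05 for Ankrd37 and 1.55 for Vegfa. The primary tumours of the mice were far closer to each other than the lungs were. Mouse_628 had 1.02 times the Car9 of Mouse_627 in the primary tumour (exact conditional 95% interval 0.988 to 1.04) but 44.6 times in the lung (29.9 to 69.8). Over the other genes the ratio of Mouse_628 to Mouse_627 was 0.954 to 1.33 in the primary tumour. In the lung it was 1.77 for Bnip3, 2.08 for Adm, 2.10 for Ankrd37, 2.11 for Ndrg1, 2.34 for Pdk1 and 2.94 for Egln3. Vegfa went the other way, with 3.55 times as much in the lung of Mouse_627. These intervals cover counting error within 1 section of each mouse, and the difference between the mice has no replicate check. The 4T1 markers were 122 in the lung of Mouse_627 against 1063 in that of Mouse_628, and the alveolar markers 13761 against 7777, and their part in the result was not tested.

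Depth differed between spots, so each spot with at least 1000 UMIs was also thinned to a draw of 1000. Among such draws Car9 was seen in 54.9% and 46.4% of spots in the primary tumours of Mouse_627 and Mouse_628, in 4.76% in the lung of Mouse_628 and in 0.178% in that of Mouse_627. In the same spots before thinning, the shares were 93.8%, 68.7%, 23.6% and 1.42%. Egln3 was seen in 54.6% and 48.8% of draws in the primary tumours and in 4.51% and 11.2% in the lungs of Mouse_627 and Mouse_628. Ndrg1 was seen in 43.8% and 40.7% against 2.07% and 2.92%, and Bnip3 in 14.0% and 17.7% against 1.01% and 2.70%. Vegfa was seen in 13.6% and 12.3% of draws in the primary tumours, in 28.6% in the lung of Mouse_627 and in 8.61% in that of Mouse_628. A draw thus gave the same order of tissues as the summed UMIs for these 5 genes. A draw from the primary tumours held 2.20 and 2.01 of the 8 genes on average, against 0.429 and 0.414 in the lungs of Mouse_627 and Mouse_628. No gene of the 8 was seen in 6.98% and 10.3% of primary tumour draws, against 62.4% and 67.9% of lung draws. These lung values count Vegfa, seen in 28.6% and 8.61% of draws from the lungs of Mouse_627 and Mouse_628. Each of the other genes was seen in a smaller share of draws in the lung of Mouse_627 than in that of Mouse_628. The like averages of the lungs thus do not mean like levels of those genes.

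Within a section, some of the genes moved with depth. In the primary tumour of Mouse_628 Car9 was at 469, 518, 677 and 959 CPM in depth classes 1 to 4, from the shallowest spots to the deepest, each with about as many spots, and Pdk1 at 109, 131, 160 and 198. The mean receptor gene went from 29.0 to 2.42 over the same classes. In the primary tumour of Mouse_627 Car9 was at 665, 786, 928 and 817, and Egln3 at 852, 831, 814 and 742. When each spot was given equal weight by the draws, Car9 in the primary tumour of Mouse_628 was at 629 in place of 853. In that of Mouse_627 it was at 803 in place of 840.0. The Car9 level in the primary tumour of Mouse_628 thus depends on whether deep spots weigh more. The deepest class of the lung of Mouse_628 held the most Car9, 157 against 33.7 to 47.1 in the others.

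To ask where in the lung the genes were found, lung spots were ranked by a score of 4T1 markers over alveolar markers, which holds none of the 8 genes, and split into 10 equal groups. Car9 in the lung of Mouse_628 was at 7.27 CPM in the lowest group (95% interval 3.97 to 12.2), at 72.7 in group 8, at 299 in group 9 and at 240.5 in group 10 (227 to 255). Egln3 went from 60.7 to 272 and 261 in groups 9 and 10 of that lung, and Pdk1 from 22.8 to 98.8 and 103.5. Ndrg1 was between 22.8 and 32.6 in groups 1 to 8 and at 81.1 and 66.9 in groups 9 and 10. Bnip3 was between 14.1 and 24.1 in groups 1 to 8 and at 42.7 and 38.2 in the last groups, and Adm went from at most 16.3 to 25.5 and 27.1. Ankrd37 was between 41.3 and 63.6 in all groups and showed no trend. Car9, Egln3, Pdk1, Ndrg1, Bnip3 and Adm were thus highest in groups 9 and 10 of this score, where the 4T1 markers summed to 1666 and 1943 against 97.0 in group 1. Ranked by the 4T1 markers alone, the top 10% of spots in that lung had 1.42 times the Car9 of the rest (131 against 91.9). On that ranking the ratio was 1.27 for Bnip3, 1.22 for Adm, 1.18 for Egln3, 1.13 for Ndrg1 and 1.08 for Pdk1. Depth moved with the score as well, with a median of 7123.5 UMIs per spot in group 1 and 16102.5 in group 10.

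The lung of Mouse_627 held little of this pattern. Its groups 1 to 5 had 0 UMIs of the 4T1 markers, so those groups were ranked by alveolar markers alone. Egln3 was at 28.2 to 51.5 in groups 1 to 9 and at 116 in group 10 (97.3 to 138). Ndrg1 was at 29.8 in group 10 and at 12.6 to 26.3 in the others. Car9 was at 4.51 in group 10, from 5 UMIs, and at 0 to 4.20 in the others. The 4T1 markers reached 531 in group 10 of that lung. Vegfa ran the other way in both lungs, from 405 to 248 in Mouse_627 and from 127 to 82.3 in Mouse_628 between groups 1 and 10, with 67.0 in group 8.

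**Figure D3:**
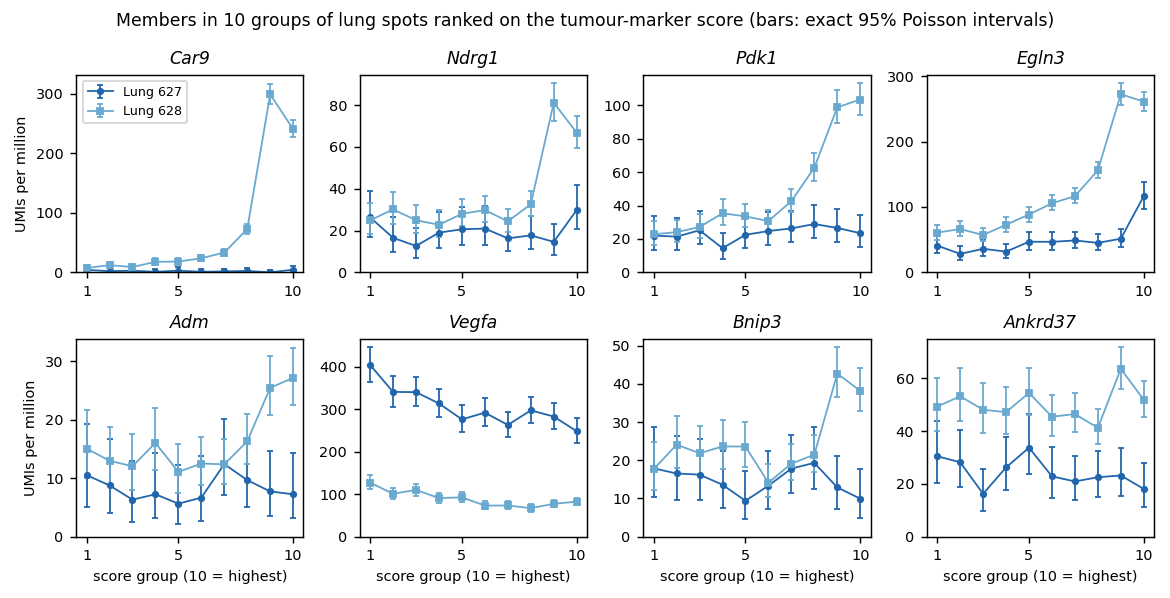
Levels of the 8 genes in 10 groups of lung spots ranked by the score of 4T1 over alveolar markers, in CPM with exact 95% Poisson intervals, for the lungs of Mouse_627 and Mouse_628. In Mouse_628 Car9 goes from 7.27 to 299 and 240.5 in groups 9 and 10, Egln3 is the gene that also stands out in group 10 of Mouse_627 at 116, and Vegfa goes down in both.

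The top 10% of spots by this score were tested against the lower 50% of the same lungs over 12578 genes (n = 2 lungs). No gene was called by edgeR (0%), with 323 at an unadjusted p under 0.05, and DESeq2 called 3 genes (0.0239%), none of the 8. Car9 was at 240.5 against 13.2 CPM in Mouse_628 and at 4.51 against 2.47 in Mouse_627, with a log2 fold change of 3.80 (SE 1.80, adjusted p = 0.623 in edgeR). Egln3 was at 261 against 70.1 and at 116 against 36.7, which is 1.68 on the log2 scale (SE 0.53, adjusted p = 0.623 in edgeR). Pdk1 had a log2 fold change of 1.21 (SE 0.72), Ndrg1 of 0.97 (SE 0.47), Adm of 0.62 (SE 0.71) and Bnip3 of 0.28 (SE 0.67). Ankrd37 was at -0.25 (SE 0.59) and Vegfa at -0.56 (SE 0.85). The median over the 8 genes was 0.80 against 0.03 over all genes. These fits left the 2 sums of a mouse unpaired, though their deviations from the class mean correlated at 0.67. With the mouse as a block in edgeR, Egln3 was at 1.64 (SE 0.20, adjusted p = 0.161) and Car9 at 3.23 (SE 0.84, adjusted p = 0.173). Ankrd37 was at -0.35 and Vegfa at -0.52 in that fit, and none of the 8 genes was called. Without the top spots of Mouse_627, which leaves 1 sum in that arm, Car9 was at 4.66, Egln3 at 2.06 and Pdk1 at 1.81 in edgeR. Without the top spots of Mouse_628, Car9 was at -0.91 and Pdk1 at -0.19, and no gene was called.

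The same top 10% of lung spots were then set against the primary tumours, so that this comparison shares its lung spots with the one before and its tumour sections with the first. Over 13967 genes edgeR called 4 (0.0286%), none of the 8, with 1324 at an unadjusted p under 0.05. The 4 genes, named after their values were seen, were Bpifa1 (higher) and Gzmc, Gzmf and Gzmg (lower). By level, 7 of the 8 genes were lower in the top spots of each lung than in either primary tumour, as were 22.3% of all genes tested. Alveolar markers in the top spots of Mouse_627 and Mouse_628 were at 9730 and 1291 CPM, against 27.9 and 76.0 in the primary tumours. The 4T1 markers were at 531 and 1943 against 3835 and 4696, and the part of these markers in the result was not tested. Whether the lung of Mouse_627 holds foci was not established here. Ndrg1 was at 29.8 and 66.9 CPM in the top lung spots of Mouse_627 and Mouse_628 and had a log2 fold change of -3.59 (SE 0.49, adjusted p = 0.190 in edgeR). Adm was at 7.22 and 27.1 with a log2 fold change of -2.93 (SE 0.56), Bnip3 at 9.93 and 38.2 with -2.78 (SE 0.57), and Egln3 at 116 and 261 with -2.02 (SE 0.47). Car9 had a log2 fold change of -2.82 (SE 1.26), Pdk1 of -1.50 (SE 0.61), Ankrd37 of -1.48 (SE 0.48) and Vegfa of 0.28 (SE 0.55). With the mouse as a block, 0.831% of all genes were lower and 5 of the 8 genes were among them. They were Ndrg1 at -3.70 (adjusted p = 4.46e-05), Adm at -3.18 (adjusted p = 4.46e-05), Bnip3 at -3.03 (adjusted p = 0.000112), Car9 at -4.25 (adjusted p = 0.000928) and Egln3 at -2.12 (adjusted p = 0.0464) in edgeR. DESeq2 called Ndrg1, Adm, Bnip3 and Egln3 lower, when 1.23% of genes were. Without the top spots of Mouse_628, 1.18% of genes were lower and 7 of the 8 genes were called, with Car9 at -7.46, and Vegfa was not. Without those of Mouse_627 (0.571% of genes lower), or without the primary tumour of Mouse_627 (0.577% lower), Ndrg1, Adm and Bnip3 were called in edgeR, and without the primary tumour of Mouse_628 (0.0232% lower) none of the 8 was.

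The genes were also counted per 1000 UMIs of the 4T1 markers, a measure added after the data were seen. The top lung spots were chosen by a score that holds these markers, so the choice raises the marker UMIs there, and the ratios are given as a description. Car9 had 219 and 182 UMIs per 1000 marker UMIs in the primary tumours of Mouse_627 and Mouse_628, 124 in the top lung spots of Mouse_628 and 8.50 in those of Mouse_627. Ndrg1 had 141 and 133 in the primary tumours and 56.1 and 34.4 in the top lung spots of Mouse_627 and Mouse_628. Adm had 30.9 and 33.7 against 13.6 and 14.0, and Bnip3 had 38.6 and 41.3 against 18.7 and 19.7. Pdk1 had 46.6 and 38.7 in the primary tumours and 44.2 and 53.3 in the top lung spots, and Egln3 had 200.2 and 158 against 219 and 134. Ankrd37 had 24.7 and 22.0 against 34.0 and 26.7, and Vegfa 36.3 and 28.3 against 468 and 42.3. Over whole lungs, where no spots were chosen, Ndrg1 had 157 and 38.2, Bnip3 121 and 24.6 and Adm 67.7 and 16.2, so for these genes the order of the tissues in Mouse_627 turned with the spots used. The top spots of Mouse_627 rest on 588 marker UMIs. No test was made of these ratios.

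Position in the section was described by rings of spots counted from the edge of the tissue. In the lung of Mouse_628 Car9 was at 240.1 CPM in rings 1 to 2, at 122 in rings 3 to 5, at 25.2 in rings 6 to 9 and at 27.5 further in. Egln3 was at 239, 157, 106 and 99.1, Pdk1 at 90.5, 58.0, 38.9 and 42.0, and Ndrg1 at 71.0, 43.4, 27.1 and 27.5. Among the spots of score groups 8 to 10 alone, Car9 in that lung was at 428, 213, 40.7 and 55.8 over the same rings, while the 4T1 markers were at 1729, 1907, 1639 and 1330. The median depth of these spots was 15113, 15272, 17232.5 and 8758 UMIs, and the part of the markers and of depth in the result was not tested. In the primary tumours the rings differed less. Car9 was at 833, 870, 814 and 843 over these rings in Mouse_627 and at 890, 914, 852 and 666 in Mouse_628. Egln3 in the lung of Mouse_627 was at 77.6 in rings 1 to 2 and at 42.1 to 44.8 further in. Edge and interior were compared within single sections, with no test.

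**Figure D4:**
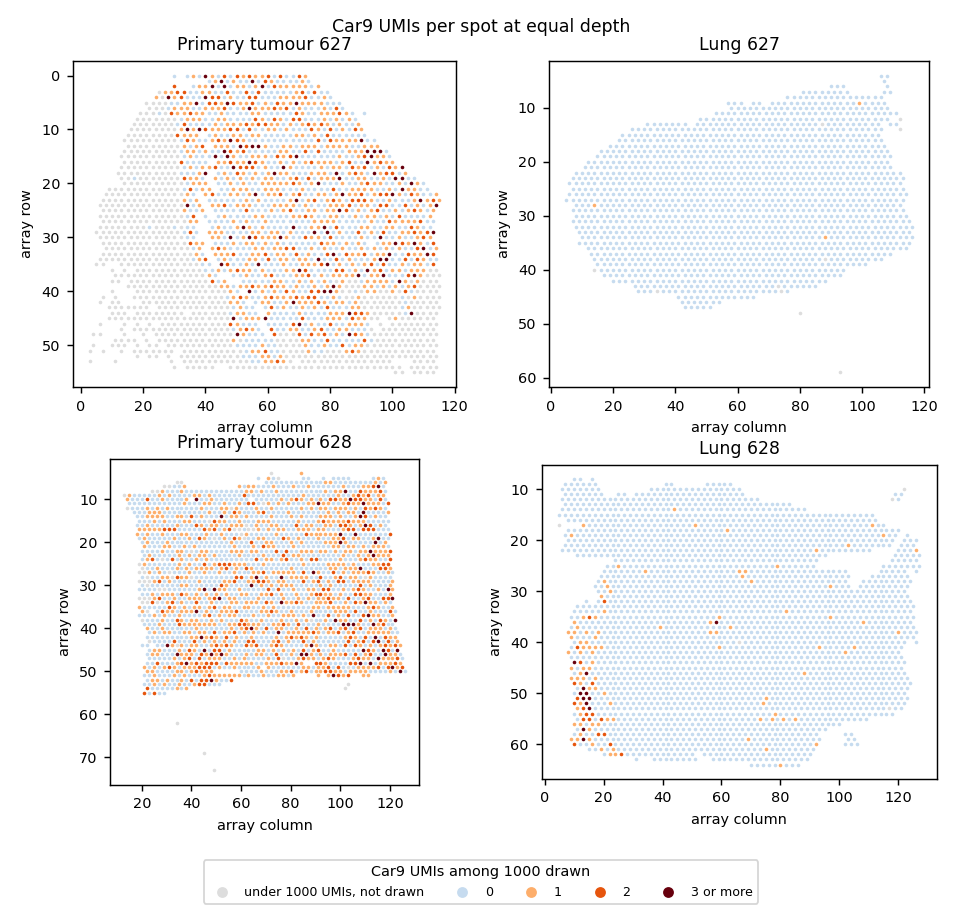
Map of each section with 1 point per kept spot at its place on the array, coloured by the number of Car9 UMIs among 1000 UMIs drawn from the spot, and grey where a spot had under 1000 UMIs. Car9 is spread over both primary tumours, is seen in 3 spots of the lung of Mouse_627, and in the lung of Mouse_628 lies in 132 spots, mostly in groups near the edge.

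Spots with a Car9 UMI in the draw were then taken as Car9-detected. They numbered 881 of 1604 and 1075 of 2316 drawn spots in the primary tumours of Mouse_627 and Mouse_628, 3 of 1687 in the lung of Mouse_627 and 132 of 2775 in the lung of Mouse_628. In the lung of Mouse_628, 93 of the 132 (70.5%) had another such spot next to them, against 342 of 2643 spots without Car9 (12.9%). Of the 132, 96 (72.7%) lay in rings 1 to 5, which held 44.1% of the drawn spots. Car9 in that lung was at 780 CPM in the detected spots, which the choice of spots sets, and at 178, 52.0, 21.6 and 12.8 in spots 1, 2, 3 and 4 or more steps away. Egln3 was at 477 in the detected spots and at 223, 140.1, 117 and 83.7 over these distances, and Ndrg1 at 157, 58.1, 35.1, 25.2 and 25.4. Pdk1 was at 195, 90.8, 52.0, 40.6 and 29.9. Adm was at 40.5, 25.7, 15.3, 12.3 and 13.3.

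In the lung of Mouse_628 each of the 7 other genes was higher in Car9-detected spots than in the other drawn spots. The share of all genes that were higher in these spots is not given here, so the count describes the 7 genes only. Over both lungs the median log2 fold change of all genes for this split was -0.097. Ndrg1 was at 157 against 32.5 CPM (95% intervals 140 to 175 and 30.4 to 34.7), which is 4.83 times as much. Pdk1 was at 195 against 45.7 (4.28 times), Egln3 at 477 against 122 (3.91 times) and Bnip3 at 83.5 against 22.1 (3.78 times). Adm was at 40.5 against 15.6 (2.60 times), Ankrd37 at 95.7 against 47.2 (2.03 times) and Vegfa at 113.9 against 83.6 (1.36 times). Egln3, Ndrg1, Pdk1, Bnip3 and Ankrd37 went up further in spots with more Car9. Egln3 was at 122, 409, 559 and 899 in spots with 0, 1, 2 and 3 or more Car9 UMIs in the draw, and Ndrg1 at 32.5, 111, 220 and 429, from 2643, 101, 19 and 12 spots. Pdk1 was at 45.7, 167, 267 and 314, Bnip3 at 22.1, 68.4, 101 and 178, and Ankrd37 at 47.2, 83.6, 101 and 183. For Pdk1, Bnip3 and Ankrd37 the intervals of the last 2 classes overlap. Adm was at 54.0 and 52.3 and Vegfa at 158.5 and 141 in the last 2 classes, where their intervals overlap. Egln3 in the last class, at 899 (770 to 1044), overlapped its level of 884 (815 to 956) and 836 (760.0 to 917) in the same class of the primary tumours. In that class Ndrg1 was lower in the lung, at 429 (341 to 532) against 657 (598 to 720.4) and 864 (787 to 946), and so was Adm, at 52.3 (25.1 to 96.2) against 151 (124 to 183) and 189 (154 to 230.0). Pdk1 in the lung, at 314 (239 to 404), lay above the 170.1 (141 to 204) of Mouse_627 and overlapped the 234 (195 to 279) of Mouse_628. Over the same classes the 4T1 markers summed to 1012, 1728, 2101 and 1757, the alveolar markers to 8170, 2505, 1193 and 894 and the endothelial markers to 1082, 474, 274 and 241. The median depth was 9012, 14332, 13442 and 17283 UMIs per spot, and the part of these markers and of depth in the result was not tested. Spots of 1 section are not replicates, so these are values of 1 lung.

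**Figure D5:**
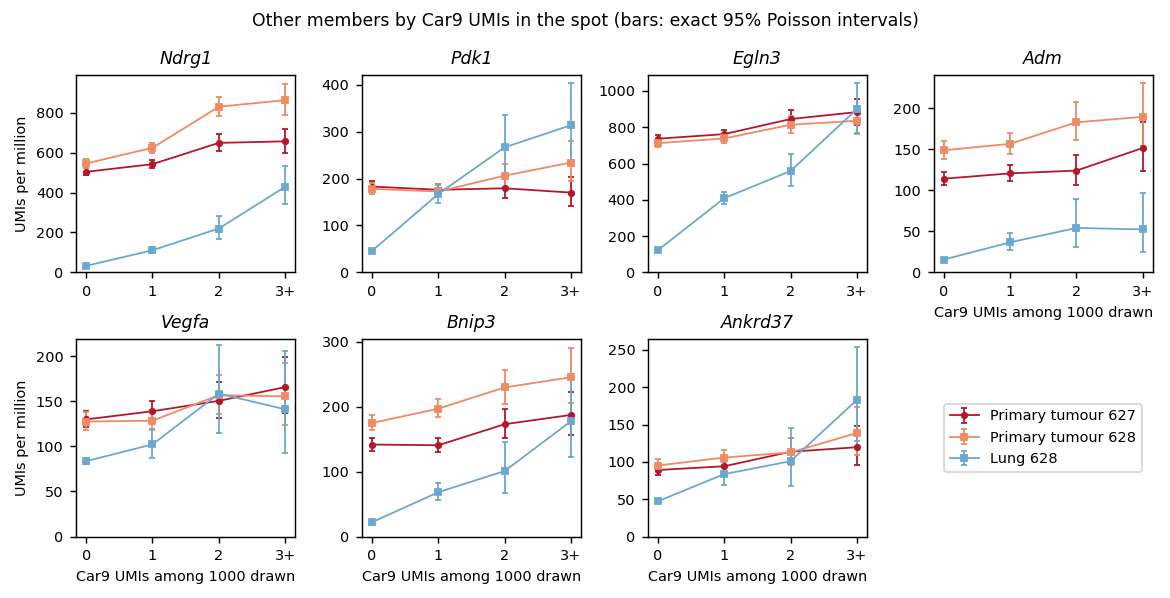
Levels of the other 7 genes in spots with 0, 1, 2 and 3 or more Car9 UMIs among 1000 drawn, in CPM with exact 95% Poisson intervals, for both primary tumours and the lung of Mouse_628. In that lung Ndrg1 goes from 32.5 to 429 and Egln3 from 122 to 899, while in the primary tumours of Mouse_627 and Mouse_628 Ndrg1 goes from 504 to 657 and from 546 to 864, and Egln3 from 737 to 884 and from 712 to 836.

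In the primary tumours the same split was made. Ndrg1 was at 577 against 504 CPM in Car9-detected and other spots of Mouse_627 and at 693 against 546 in Mouse_628. Bnip3 was at 152 against 142 and at 209 against 175, and Ankrd37 at 101 against 89.1 and at 110.3 against 95.1. Pdk1 was at 176 against 183 in Mouse_627 and at 186 against 178 in Mouse_628. From 0 to 3 or more Car9 UMIs in the draw, Bnip3 went from 142 to 187 in Mouse_627 and from 175 to 245 in Mouse_628, and Ankrd37 from 89.1 to 120 and from 95.1 to 139. Ndrg1 had a log2 fold change of 0.32 (SE 0.31), Ankrd37 of 0.25 (SE 0.27), Bnip3 of 0.24 (SE 0.28), Adm of 0.20 (SE 0.27), Vegfa of 0.18 (SE 0.29), Egln3 of 0.15 (SE 0.34) and Pdk1 of 0.05 (SE 0.29). Leaving out Car9, which chose the spots, edgeR called none of 18811 genes (0%) and none had an unadjusted p under 0.05. DESeq2 called none and had none at that p. Both fits left the 2 sums of a mouse unpaired, though their deviations from the class mean correlated at 0.94. They therefore had little sensitivity to a shift within each mouse. When any Car9 UMI at any depth chose the spots, the median over the 7 genes was 0.84 in place of 0.20, and again no gene was called. With the mouse as a block, none of the 7 genes was called (adjusted p = 0.967 for each in edgeR). In that fit Ankrd37 was at 0.25 (unadjusted p = 0.0280 in edgeR) and Ndrg1 at 0.33 (unadjusted p = 0.0344 in edgeR). The others of the 7 had an unadjusted p above 0.05. The endothelial markers went with Car9 the opposite way, from 304 to 266 in Mouse_627 and from 243 to 160.0 in Mouse_628. The 4T1 markers were at 3782 in spots without Car9 and at 3930 in Car9-detected spots of Mouse_627, and at 4232 and 5099 in those of Mouse_628. Over 0, 1, 2 and 3 or more Car9 UMIs they were at 4232, 5280, 4746 and 4623 in Mouse_628. The top 10% of spots by a score of 4T1 markers in that primary tumour had 0.629 times the Car9 of the rest. Each of the 8 genes was below the rest there, from 0.568 for Vegfa to 0.924 for Bnip3. The share of all genes below the rest is not given here, so the count describes the 8 genes only. Median depth in the top spots was 1435 UMIs, against 1925 in the rest. These spots held less of the summed markers than the rest, 3292.5 against 4747 CPM, so they cannot be read as richer in 4T1 markers. In Mouse_627 the ratios of the 8 genes lay between 0.952 for Adm and 1.04 for Egln3. The part of these markers in the result was not tested.

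Across both lungs the split by Car9 rests on Mouse_628. The 3 detected spots of the lung of Mouse_627 held 3 UMIs of Egln3, 3 of Vegfa and 0 of the other 5 genes. With these spots in the model, edgeR called none of 12684 genes (0%), with 1262 at an unadjusted p under 0.05, and DESeq2 called none, with 49. With the mouse as a block 3.66% of genes were higher, and 6 of the 7 genes were called. They were Ndrg1 at 2.16, Bnip3 at 1.81, Pdk1 at 1.91, Ankrd37 at 0.92, Adm at 1.28 and Egln3 at 1.74, with adjusted p from 4.00e-34 to 0.0265 in edgeR. The Car9-detected sum of Mouse_627 in this fit is 3 spots with 14173 UMIs, so these p-values rest on the 1 lung of Mouse_628 and do not measure the spread between mice. Vegfa was at -0.06 (adjusted p = 0.973 in edgeR). Without the spots of Mouse_627 that lacked Car9, Adm alone of the 7 was called (1.24, adjusted p = 0.00964 in edgeR) when 0.489% of genes were higher. Without those of Mouse_628 it was again Adm alone (1.98, adjusted p = 9.75e-06 in edgeR), when 9.47% of genes were higher. A test of whether the Car9 split differed between lung and primary tumour, added after the data were seen, called none of 18916 genes in edgeR. The difference of log2 fold changes, lung minus primary tumour, was 1.97 for Pdk1 (SE 0.80, unadjusted p = 0.0200 in edgeR), 1.83 for Ndrg1 (SE 0.87, unadjusted p = 0.0433 in edgeR), 1.82 for Egln3 (SE 0.88, unadjusted p = 0.0474 in edgeR), 1.62 for Bnip3 (SE 0.75, unadjusted p = 0.0394 in edgeR), 1.32 for Adm (SE 0.75), 0.83 for Ankrd37 (SE 0.75) and -0.98 for Vegfa (SE 0.84), each with an adjusted p of 1.00. The sign for Vegfa depends on how the spots of Mouse_627 enter the fit. Its lung spots without Car9 were at 304 CPM of Vegfa, against 83.6 in those of Mouse_628. With the mouse as a block in each tissue, Vegfa was at -0.06 in lung and at 0.18 in primary tumour. In Mouse_628 alone Vegfa was 1.36 times as high in Car9-detected spots of the lung and 1.08 times in those of the primary tumour.

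How the genes moved together was described over tiles of 6 rows by 12 columns of the array, as Pearson correlations of log2 levels with no test, since tiles of a section share a library and differ in depth. In the primary tumour of Mouse_628 all 28 pairs were positive over 73 tiles, with a median of 0.48, and the highest was Ndrg1 with Egln3 at 0.72. In that of Mouse_627 the median was 0.24 over 76 tiles, and Ndrg1 with Ankrd37 was highest at 0.47. In the lung of Mouse_628 the median was 0.45 over 92 tiles, and Car9 correlated with Egln3 at 0.86, with Pdk1 at 0.78 and with Ndrg1 at 0.77. Vegfa stood apart there, with a median of 0.18 over its 7 partners and 0.06 with Car9. The lung of Mouse_627 had a median of -0.05 over 53 tiles, at a median of 0 Car9 UMIs per tile. Depth bore unequally on the genes, since the correlation with log2 tile depth was 0.44 for Car9 and 0.03 for Egln3 in the primary tumour of Mouse_627, and 0.70 and 0.34 in that of Mouse_628.

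Among 7595 genes at 20 or more CPM in both primary tumours, the 5 outside the 8 whose tile levels were most like the mean of the 8 genes were Ppt1, Pkm, Jund, Actb and Ero1l, with mean correlations of 0.71, 0.70, 0.69, 0.69 and 0.68 over the primary tumours. Pkm, the pyruvate kinase of glycolysis, and Ero1l, an oxidase of the endoplasmic reticulum, were also close to the 8 genes in the lung of Mouse_628, at 0.77 and 0.82. Ppt1, Jund and Actb were not, at -0.07, -0.06 and -0.39 there.

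The sensing side of the pathway was read from a list of 9 genes. This list and those of other HIF targets, paralogs and receptors were chosen with earlier results of these data known. Their counts beside the shares of all genes are therefore descriptions. In lung against primary tumour 1 of the 9 rose and none fell, when 6.31% of all genes rose and 1.15% fell. Epas1, which encodes HIF-2 alpha and is high in endothelium, was at 19.9 and 18.0 CPM in the primary tumours and at 1699 and 566 in the lungs of Mouse_627 and Mouse_628 (log2 fold change 6.27, SE 0.75, adjusted p = 0.00419 in edgeR). Hif1a was at 339 and 329 in the primary tumours and at 139 and 200.1 in the lungs (log2 fold change -0.70, SE 0.37, adjusted p = 0.297 in edgeR). Of the other hydroxylases, Egln1 was at 151 and 143 against 58.3 and 63.9 (adjusted p = 0.130 in edgeR), and Egln2 at 84.0 and 66.9 against 144 and 116 (adjusted p = 0.126 in edgeR). Neither passed the test. Vhl, the ligase component that recognises hydroxylated HIF, was at 46.4 and 41.3 against 36.1 and 35.3. The median log2 fold change of the list was 0.20.

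Of 31 other HIF targets with a single entry, 6 fell in the lung, 3 rose and 22 did neither, when 1.15% of all genes fell and 6.31% rose, with a median log2 fold change of -1.16. Those that fell were Ero1l at -2.62 (SE 0.44), the adenylate kinase Ak4 at -2.44 (SE 0.63), the glucose transporter Slc2a1 at -2.28 (SE 0.43), the collagen hydroxylase P4ha1 at -1.88 (SE 0.39), the repressor Bhlhe40 at -1.67 (SE 0.42) and Cited2 at -1.44 (SE 0.35). Slc2a1 was at 931 and 1237 CPM in the primary tumours and at 163 and 201 in the lungs. Those that rose were Pfkfb4 at 3.06 (SE 0.50), a regulator of glycolysis, the lysyl oxidase Lox at 3.03 (SE 0.63) and Slc2a3 at 2.75 (SE 0.54), a glucose transporter of blood cells and neurons. Slc2a3 was at 43.2 and 69.7 in the primary tumours and at 408 and 179.7 in the lungs of Mouse_627 and Mouse_628. Neutrophil markers summed to 2622 and 11333 in the primary tumours and to 82036 and 32967 in these lungs, and their part in the result was not tested. In none of the other 4 comparisons was a gene of this list called.

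Of 15 paralogs of the 8 genes, 5 rose in the lung, 2 fell and 8 were called neither way, when 6.31% of all genes rose and 1.15% fell. The median log2 fold change of the list was 0.47. Alveolar and endothelial markers were also higher in both lungs, with alveolar sums of 13761 and 7777 against 27.9 and 76.0 and endothelial sums of 2085 and 1039 against 283 and 198, and their part in the result was not tested. The carbonic anhydrases Car4, a capillary enzyme of the lung, Car8 and Car2 rose with log2 fold changes of 4.51 (SE 0.63), 4.21 (SE 0.88) and 2.69 (SE 0.48), while Car9 was lower. Ndrg2 rose at 3.26 (SE 0.53), in the opposite direction to Ndrg1. Of the growth factors related to Vegfa, Vegfd rose at 4.41 (SE 0.55), and Pgf at -2.29 (SE 0.50) and Vegfc at -1.66 (SE 0.42) fell. Pdk2, Pdk3 and Pdk4 were not called, with adjusted p of 0.114, 0.931 and 0.932 in edgeR.

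Of 8 receptor genes of the secreted factors 4 rose in the lung and none fell, when 6.31% of all genes rose and 1.15% fell, with a median log2 fold change of 2.24. For Adm, the receptor Calcrl was at 7.61 and 9.64 CPM in the primary tumours and at 684 and 240 in the lungs (log2 fold change 6.12, SE 0.69). Its partner Ramp2 was at 18.5 and 12.5 against 399 and 184 (log2 fold change 4.58, SE 0.58). For Vegfa, Kdr was at 14.0 and 12.7 against 202 and 83.5 (log2 fold change 3.78, SE 0.55), and Nrp1 rose at 2.16 (SE 0.46). The endothelial markers, a list that also holds Ramp2, summed to 283 and 198 in the primary tumours and to 2085 and 1039 in the lungs, and their part in the result was not tested. Adm itself fell in the lung.

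Finally, the top 10% of spots for markers of each cell type were compared with the rest of the same section. In the lung of Mouse_628 Car9 was at 10.5 CPM in spots rich in alveolar markers against 104 in the rest, and at 5.29 against 102 in spots rich in neutrophil markers. Vegfa was 1.56 times as high in alveolar-rich spots there (128 against 81.8) and 1.36 times in the lung of Mouse_627 (399 against 294). Egln3 was 2.72 times as high in fibroblast-rich spots as in the rest of the lung of Mouse_627 (114 against 41.9), 2.24 times in macrophage-rich and 2.10 times in proliferation-rich spots. In the lung of Mouse_628 the same ratios of Egln3 were 1.06, 0.941 and 1.36. In endothelial-rich spots the ratios of the 8 genes were between 0.85 and 1.03 in the primary tumour of Mouse_627, between 0.60 and 0.97 in that of Mouse_628, between 0.577 and 1.19 in the lung of Mouse_627 and between 0.285 and 1.17 in that of Mouse_628. The lowest of these in Mouse_628 was that of Car9 in both tissues. These are comparisons of spots within 1 section, with no test.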

How the data were processed

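Per the labels and the file headers, Space Ranger 2.0.0 processed the Visium libraries of fixed tissue against mm10. What the authors deposited are unnormalized UMI counts for each spot and gene, and the place of each spot. Here counts of spots with more than 200 genes were summed per section or class of spots. Sums were tested in R 4.3.3 with edgeR 4.0.16 (TMM, filterByExpr, quasi-likelihood test, Benjamini-Hochberg adjustment over all genes tested, threshold 0.05), and DESeq2 1.42.0 was an alternative. An adjusted p is from edgeR unless DESeq2 is named. The score is log2((T + 0.1)/(A + 0.1)), with T and A the mean of 4T1 and alveolar markers, each gene relative to its section level. Draws of 1000 UMIs per spot used a fixed seed. Tile correlations used log2 of CPM plus 10 in tiles of at least 10 spots. Poisson and binomial intervals are exact, at 95%, and cover counting error only. The mouse pairs the sums because both come from 1 animal. Within a mouse, the deviations of its sums from the class mean correlated at -0.31 for lung against primary tumour, at 0.67 and -0.35 for the top lung spots against other lung spots and against primary tumour, and at 0.94 and 0.40 for the Car9 split in primary tumour and lung. Nothing says more than 1 section was cut per tissue, so p-values measure the spread between 2 animals, with some exceptions. Fits that left out a sum and the lung Car9 split rest on 1 sum in an arm or nearly so. The p-values of Car9 against primary tumour with the mouse as a block do not reflect its 44.6-fold difference between the lungs. The thinning of spots and the edgeR fit without a block were tested on simulated data, and the other steps were not. The genes named are the 8 members, the genes of 4 lists (oxygen sensing, other HIF targets, paralogs, receptors) and the 5 genes most like the members. Hoxc9, a marker at 0, and 4 called genes outside these sets were named after their values were seen. The members and lists were chosen with earlier results of these data known. Of 38 other targets listed, Aldoa has more than 1 entry and Tpi1, Eno1, Ldha, Mxi1 and Higd1a were not analysed here. Ero1a was analysed under its other symbol, Ero1l, which is listed as well. Histological outlines of foci were not used here. Python 3.11.15, numpy 2.4.6, scipy 1.17.1 and matplotlib 3.10.9 were used for the rest.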

Additional observations from a re-analysis of the deposited data

How the results depend on the processing

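Of the alternatives for lung against primary tumour, where edgeR called 1139 genes, DESeq2 called 2644, upper-quartile normalization 185 (median log2 fold change of all genes -0.28), no filter on low counts 2022, the mouse as a replicate block 1817 and spots of 1000 or more UMIs 681. Leaving out 1 section gave 883 to 6604 calls. It was 6604 without the primary tumour of Mouse_627 (5217 lower and 1387 higher, against 176 and 963) and 2519 without the lung of Mouse_628. DESeq2 put 54.3% of its calls higher, against 84.5% in edgeR. Under upper-quartile normalization Pdk1 (adjusted p = 0.0566) and Egln3 (adjusted p = 0.0542) were not called. For the top 10% against the lower 50% of lung spots, with 0 calls, DESeq2 called 3, and leaving out 1 sum gave 0 to 993 calls. For the top 10% against primary tumour, with 4 calls, DESeq2 called 420, no filter 603, the replicate block 333, thinned spots 8 and the top 5% of spots 16, and leaving out 1 sum gave 15 to 1088 calls (206 and 15 without the primary tumours of Mouse_627 and Mouse_628, 308 and 1088 without their top lung spots). For the Car9 split, with 0 calls in each tissue, the replicate block called 2 genes in primary tumour and 1505 in lung, and in lung no filter called 1 and thinned spots 1. Leaving out 1 sum gave 0 to 49 calls in primary tumour and 0 to 2635 in lung.

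Of 410 log2 fold changes of the 8 genes under alternatives, 344 kept both their sign and their side of the threshold, 47 came past it, 4 lost it and 15 changed sign. Leaving out 1 sum, the log2 fold change of Vegfa ranged from -0.34 to 1.79 in lung against primary tumour. In the top against lower lung spots the ranges were -0.91 to 5.41 (Car9), -0.19 to 1.81 (Pdk1), -0.63 to 1.13 (Adm), -1.66 to 0.60 (Vegfa), -0.99 to 0.81 (Bnip3) and -1.19 to 0.20 (Ankrd37). For the top spots against primary tumour the range of Vegfa was -0.62 to 0.95. In the Car9 split they were -0.11 to 0.27 (Pdk1) and -0.013 to 0.38 (Egln3) in primary tumour and -1.52 to 0.43 (Vegfa) in lung. Thinning turned Ankrd37 to 0.20 in the top against lower lung spots and Pdk1 to -0.033 in the Car9 split of the primary tumour. The cause of these changes was not tested. Leaving out the Car9-detected spots of Mouse_628 left 3 spots with at most 3 UMIs of any of the genes, so no fold change is given, and a split at 2 or more Car9 UMIs could not be fitted in lung. At the depth of the lung of Mouse_627, 3 UMIs are 0.270 CPM.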
